A study of Arabidopsis thaliana with 6 samples.

Results

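The plastid-encoded RNA polymerase is described here through the transcripts of its 4 core subunits, rpoA, rpoB, rpoC1 and rpoC2, in whole Arabidopsis seedlings held in the cold or the warm. Its members were chosen by gene identity and not by their values. They are the probe sets with exactly 1 annotated gene, where that gene is one of these 4 plastid genes. The rule found 4 probe sets of the 22746 on the array that are not controls, 1 for each subunit: rpoA (ArthCp055, probe set 244978_at), rpoB (ArthCp014, 244999_at), rpoC1 (ArthCp013, 244998_at) and rpoC2 (ArthCp012, 244997_at). In all, 69 probe sets had a plastid gene as their only gene, and all 4 members passed the filter on low values.

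The groups were the sfr6 line at 4 °C and at 20 °C, the cls8 line at 4 °C and at 20 °C, and the wild type at 4 °C and at 20 °C, with 1 Affymetrix ATH1 array for each. Both mutant lines came from EMS mutagenesis and have the Col-0 background of the wild type, which was stock N1092. As background, sfr6 is a freezing-sensitive mutant of a Mediator complex subunit, and cls8 is a chilling-sensitive mutant of the large subunit of ribonucleotide reductase, an enzyme that supplies DNA precursors. Every seedling had 4 days of stratification at 4 °C, grew on MS medium at 20 °C, and at 7 days was moved, in the light, to 4 °C or 20 °C for 3 h before harvest. Each array received RNA pooled from 40 to 60 plants, and each mutant was 1 line, so no group has a second array. The mutated genes of sfr6 and cls8 had no named probe set and were not analysed here. The sample titles carry the word repeat on both cls8 arrays and on no other, so an effect of repetition cannot be told apart from that of the cls8 line.

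Plastids of land plants transcribe their own genome with a bacterial-type enzyme, the plastid-encoded polymerase, and with a phage-type enzyme encoded in the nucleus. In the bacterial-type enzyme, rpoA encodes the alpha subunit, on which the core assembles, and rpoB encodes the beta subunit, which with the beta' subunit forms the active site. The beta' subunit of bacteria is divided in plants between the products of rpoC1, which carries the catalytic metal-binding motif, and rpoC2, called beta''. Nuclear-encoded sigma factors direct this core to promoters, above all those of photosynthesis genes, whereas rpoB, rpoC1 and rpoC2 are read chiefly by the phage-type enzyme. The genes rpoB, rpoC1 and rpoC2 lie next to each other in that order, while rpoA lies apart, beside a run of ribosomal protein genes.

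Values are deposited intensities on a linear scale, on which every array has a trimmed mean of 100. The array medians lay between 41.7 and 45.2. The plastid-encoded transcripts other than the members had a median intensity of 1202 in sfr6 at 4 °C, 1159 in sfr6 at 20 °C, 1132 in cls8 at 4 °C, 1045 in cls8 at 20 °C, 1139 in the wild type at 4 °C and 1329 in the wild type at 20 °C. The array of cls8 at 20 °C also stood apart in its 25S ribosomal RNA control, at 481.5 against 1424 to 2716 on the other arrays. Its brightest probe set, at 3744, was the lowest, but that of the wild type at 4 °C was close, at 4027, and the highest was 5895. The cDNA from which the labelled cRNA was made was primed with oligo(dT), per the labels' protocols, and plastid transcripts mostly lack the stable poly(A) tails of nuclear messengers. Intensities of different probe sets were not set against each other. In whole seedlings, fewer green cells, fewer plastids or plastid genomes per cell, and less RNA from each gene cannot be told apart.

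The rpoA transcript, for the alpha subunit, read 545.8 in sfr6 at 4 °C, 657.3 in sfr6 at 20 °C, 611.2 in cls8 at 4 °C, 509.2 in cls8 at 20 °C, 701.9 in the wild type at 4 °C and 759.6 in the wild type at 20 °C. Both wild-type arrays lay above all 4 mutant arrays, and the share of all probe sets with this order was not computed. Against the wild type, 13.3% of all probe sets were lower without overlap in sfr6, and 11.8% in cls8. The highest array was 1.49 times the lowest. Ordered from high to low, only 1 of the 5 gaps between neighbours was larger than the moderated residual SD, that between cls8 at 4 °C and sfr6 at 4 °C. This SD, 0.15 on the log2 scale, is that of the additive limma model. It is not the probe set's own residual SD, because limma draws each probe set's spread toward a common prior.

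The rpoB transcript, for the beta subunit, read 76.1 in sfr6 at 4 °C, 30.9 in sfr6 at 20 °C, 33.2 in cls8 at 4 °C, 29.1 in cls8 at 20 °C, 70.8 in the wild type at 4 °C and 57.6 in the wild type at 20 °C. The arrays fell into a high set, made of both wild-type arrays and sfr6 at 4 °C, and a low set, made of both cls8 arrays and sfr6 at 20 °C. The gap between the sets, from 57.6 to 33.2, was 0.60 on the log2 scale, against a moderated residual SD of 0.21. The only other gap above that SD separated the wild-type arrays from each other, at 0.24. The highest array was 2.62 times the lowest, the widest range of the 4 subunits. This probe set was dim, at a mean of 49.6, and only rps14 and ndhF among the other plastid transcripts also had a mean intensity under 100.

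The rpoC1 transcript, for the beta' subunit, read 1138 in sfr6 at 4 °C, 1069 in sfr6 at 20 °C, 1085 in cls8 at 4 °C, 880.3 in cls8 at 20 °C, 896 in the wild type at 4 °C and 1058 in the wild type at 20 °C. Its range was the narrowest of the 4, with the highest array 1.29 times the lowest. In descending order, 1 of 5 gaps exceeded the moderated residual SD of 0.16, and it lay between the wild type at 20 °C and the wild type at 4 °C.

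The rpoC2 transcript, for the beta'' subunit, read 536.5 in sfr6 at 4 °C, 511.6 in sfr6 at 20 °C, 421.4 in cls8 at 4 °C, 363.8 in cls8 at 20 °C, 441.7 in the wild type at 4 °C and 548.9 in the wild type at 20 °C. Both cls8 arrays lay below all the others, an order whose share over all probe sets was not computed. Against the wild-type arrays alone, 11.8% of all probe sets were lower in cls8 without overlap. The highest array was 1.51 times the lowest. The gaps between sfr6 at 20 °C and the wild type at 4 °C, and between cls8 at 4 °C and cls8 at 20 °C, were the 2 of 5 above the moderated residual SD of 0.15.

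**Figure D1:**
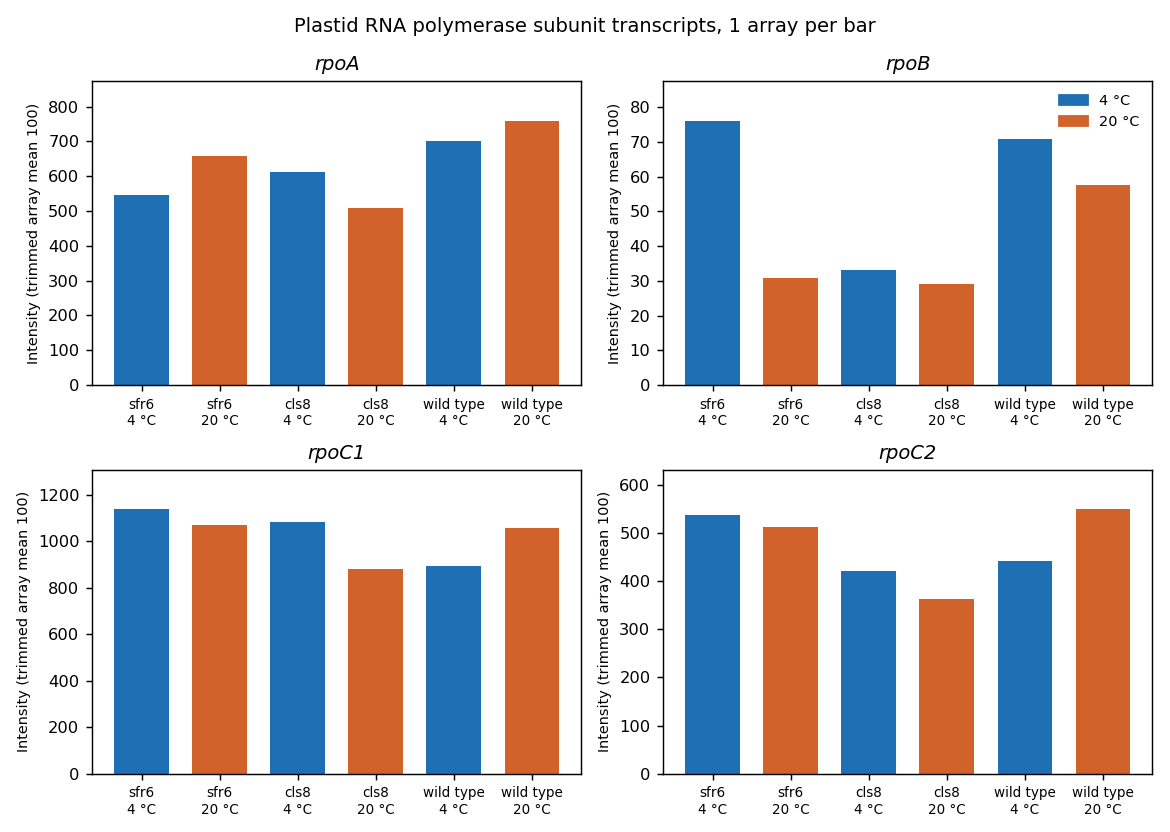
Intensity (linear scale, trimmed array mean 100) of the 4 subunit transcripts, 1 bar for each array, with 4 °C in blue and 20 °C in orange. rpoB is low in both cls8 arrays and in sfr6 at 20 °C (29.1 to 33.2) and high in the other 3 arrays (57.6 to 76.1), while rpoC1 varies least.

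The first comparison asked whether the subunit transcripts differed between 4 °C and 20 °C over the 3 lines. None of the 4 changed by the test, and rpoA, rpoC1 and rpoC2 averaged nearly the same intensity at both temperatures. rpoA averaged 619.6 ± 78.4 at 4 °C and 642 ± 125.9 at 20 °C (SD, n = 3 arrays each). rpoC1 averaged 1040 ± 127.3 at 4 °C and 1003 ± 106.1 at 20 °C, and rpoC2 466.5 ± 61.4 at 4 °C and 474.8 ± 97.9 at 20 °C. rpoB averaged 60.0 ± 23.4 at 4 °C and 39.2 ± 16 at 20 °C, and for all 4 the arrays of the temperatures overlapped. Over the whole table, the temperatures did not overlap for 14.5% of probe sets with 4 °C higher and for 18.5% with 4 °C lower.

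The additive limma model for temperature and line gave rpoB a log2 difference, 4 °C minus 20 °C, of 0.46 ± 0.17 (SE), with a 95% interval of 0.07 to 0.85 and a Benjamini-Hochberg adjusted p of 0.0967 over 13648 probe sets. The limma log2 difference was 0.05 ± 0.13 for rpoC1 (95% interval -0.25 to 0.35), -0.01 ± 0.12 for rpoC2 (-0.28 to 0.26) and -0.04 ± 0.12 for rpoA (-0.32 to 0.24), with adjusted p between 0.833 and 0.96. Thus 0 of 4 subunits passed an adjusted p of 0.05, where 18.8% of all probe sets passed (9.58% higher and 9.25% lower at 4 °C). By limma 1 of 4, rpoB, had an unadjusted p under 0.05, as did 4499 of the 13648 probe sets. rpoB was higher at 4 °C in all 3 lines, as were 23.2% of all probe sets. No other subunit had 1 direction in all 3 lines, and 30.0% of all probe sets were lower at 4 °C in all 3. Without either cls8 array the rpoB difference was 0.62, and it then passed, with a limma adjusted p of 0.0305 without the 20 °C array and 0.0289 without the 4 °C array; both fits rest on the wild-type and sfr6 pairs alone. Without either sfr6 array it was 0.19.

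Among the 65 other plastid transcripts, 3 rose at 4 °C and 62 did not pass. Their median log2 difference was 0.06, the 4 subunits had a median of 0.02, and all probe sets tested had one of -0.04. Over all 69 plastid transcripts the median was 0.05, but -0.06 without either cls8 array and 0.18 without either wild-type array. Only 1 of the 69 passed without either sfr6 array, with no filter or with no line term, and 2 passed without either wild-type array. The 3 that rose were rps16 (1.06), rbcL (0.47) and atpH (0.42), for a ribosomal protein, Rubisco and the ATP synthase. The difference of rpoB was the 4th highest of the 69, below rps16, ndhJ (0.48, not passing) and rbcL.

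**Figure D2:**
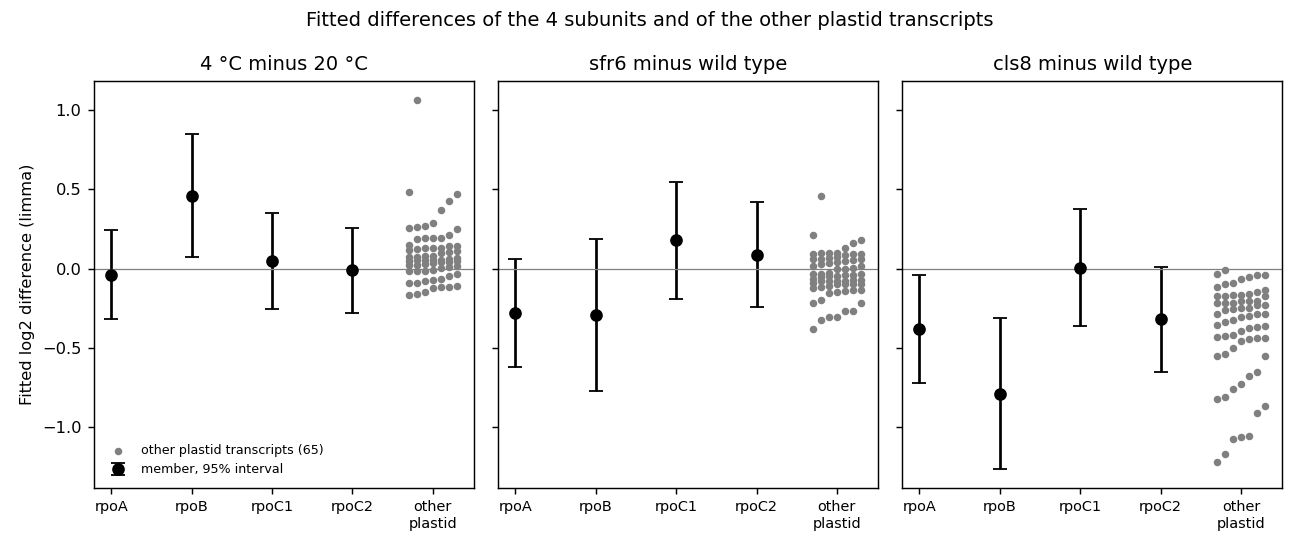
Fitted log2 differences from limma for 4 °C minus 20 °C, sfr6 minus wild type and cls8 minus wild type, with 95% intervals for the 4 subunits (black) and the fitted values of the 65 other plastid transcripts (grey). rpoB has the interval farthest above 0 for temperature (0.07 to 0.85) and the one farthest below 0 for cls8 (-1.26 to -0.31), and in cls8 rpoC1 (0.01, or -0.021 after quantile normalization) lies above all grey points.

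The comparison of sfr6 with the wild type asked whether the subunit transcripts depended on this line at both temperatures. No subunit passed the test, and the 4 fitted differences were split in sign. rpoA averaged 601.6 ± 78.8 in sfr6 and 730.8 ± 40.8 in the wild type (SD, n = 2 arrays each, 1 per temperature), and its sfr6 arrays lay below both wild-type arrays. rpoC1 averaged 1104 ± 48.6 in sfr6 and 977.1 ± 114.6 in the wild type, with both sfr6 arrays above both wild-type arrays. The sfr6 arrays overlapped the wild-type arrays for rpoB and rpoC2.

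By limma with temperature as a term, the log2 difference of sfr6 minus the wild type was -0.28 ± 0.15 (SE) for rpoA, with a 95% interval of -0.62 to 0.06, and -0.29 ± 0.21 for rpoB, with one of -0.77 to 0.18. It was 0.18 ± 0.16 for rpoC1 (95% interval -0.19 to 0.55) and 0.09 ± 0.15 for rpoC2 (-0.24 to 0.42). The limma adjusted p lay between 0.544 and 0.893, so 0 of 4 passed, against 1.34% of all probe sets (0.366% higher and 0.975% lower in sfr6). By limma 0 of 4 had an unadjusted p under 0.05, where 1565 of the 13648 probe sets did. Lower values without overlap, as for rpoA, occurred in 13.3% of all probe sets, and higher ones, as for rpoC1, in 13.7%. The 4 subunits had a median log2 difference of -0.10, the 65 other plastid transcripts one of -0.04 with none passing, and all probe sets one of 0.01.

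The fitted rpoB value in sfr6 averages unlike pairs of arrays. The pair at 4 °C, with sfr6 at 76.1 and the wild type at 70.8, differed by 0.09 on the log2 scale. The pair at 20 °C, with sfr6 at 30.9 and the wild type at 57.6, differed by -0.67. The array of sfr6 at 20 °C had 1101 outlier cells per the labels, the most of the 6, followed by cls8 at 20 °C with 922. The fitted rpoB difference of sfr6 minus the wild type was 0.12 without sfr6 at 20 °C and -0.70 without sfr6 at 4 °C. The part of outlier cells in these values was not tested.

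The comparison of cls8 with the wild type shares its wild-type arrays with the sfr6 comparison. Here rpoB had the largest difference of the 4 subunits, at 31.1 ± 2.9 in cls8 against 64.2 ± 9.33 in the wild type (SD, n = 2 arrays each, 1 per temperature). rpoA averaged 560.2 ± 72.1 in cls8 and 730.8 ± 40.8 in the wild type, and rpoC2 averaged 392.6 ± 40.7 in cls8 and 495.3 ± 75.8 in the wild type. For rpoA, rpoB and rpoC2 both cls8 arrays lay below both wild-type arrays. rpoC1 averaged 982.8 ± 145 in cls8 and 977.1 ± 114.6 in the wild type, with overlapping arrays. None of the 4 passed the test over all probe sets.

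The limma log2 difference of cls8 minus the wild type was -0.79 ± 0.21 (SE) for rpoB, with a 95% interval of -1.26 to -0.31 and an adjusted p of 0.544. It was -0.38 ± 0.15 for rpoA (95% interval -0.72 to -0.04), -0.32 ± 0.15 for rpoC2 (-0.65 to 0.01) and 0.01 ± 0.16 for rpoC1 (-0.36 to 0.38), with limma adjusted p between 0.759 and 0.997. So 0 of 4 passed, where 0.117% of all probe sets did (0.0659% higher and 0.0513% lower in cls8), and 2 of 4, rpoA and rpoB, had an unadjusted p under 0.05, as did 873 of the 13648 probe sets. Lower values in cls8 with no overlap, seen in 3 of 4 subunits, occurred in 11.8% of all probe sets, and higher ones in 10.2%. The intensity of rpoB in cls8 was 0.47 times that in the wild type at 4 °C and 0.51 times at 20 °C, close at both temperatures. For rpoA these ratios were 0.87 at 4 °C and 0.67 at 20 °C, for rpoC2 0.95 and 0.66, and for rpoC1 1.21 and 0.83.

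Lower fitted values in cls8 were shared by nearly all plastid transcripts. The fitted difference was negative for all 65 other plastid transcripts, and rpoC1 was the only one of the 69 with a positive one (-0.021 after quantile normalization), whereas 47.8% of all probe sets had a positive one. Only ndhF, psbT and petG passed, all lower in cls8. The 65 others had a median log2 difference of -0.30, the 4 subunits one of -0.35, and all probe sets one of -0.01. These plastid values moved with single arrays. Over all 69 plastid transcripts the median was -0.31 with 3 passing, -0.16 with 2 passing without cls8 at 20 °C, and -0.48 with 10 passing without cls8 at 4 °C. It was -0.46 without the wild type at 4 °C and -0.22 without the wild type at 20 °C. With no filter or with no temperature term, 0 of 69 passed. rpoB had the 10th lowest difference of the 69, rpoA the 27th and rpoC2 the 34th. No overlap, with cls8 lower, was found for 38 of the 65 others. Over array pairs, 68 of 69 plastid transcripts were lower in cls8 than in the wild type at 20 °C, and 46 of 69 at 4 °C. Of all 13648 probe sets, 6642 were lower in cls8 at 20 °C and 7327 at 4 °C. In sfr6, 54 of 69 plastid transcripts were lower than in the same wild-type array at 20 °C, and 26 of 69 at 4 °C. The dim plastid probe sets rps14 and ndhF also had large differences in cls8, at -1.07 and -1.22. Large differences were not limited to dim probe sets. psbT (-1.17), petG (-1.06), rpl20 (-1.05), ndhG (-0.91), rbcL (-0.87), psbB (-0.82) and petD (-0.81), brighter than these, also lay below rpoB (-0.79). The part of dimness in the rpoB difference was not tested. The bright nuclear leaf and root markers given below also read lower in cls8 than in the wild type at 20 °C. RCA, the activase of Rubisco, was at 2524 in cls8 and 4093 in the wild type. LHCB4.1 and LHCB4.2 in cls8 at 20 °C, at 3418 and 2465, were above the wild type at 4 °C, at 2931 and 2409. RCA, PSBW and PYK10 in cls8 at 20 °C, at 2524, 2247 and 2585, were below the wild type at 4 °C, at 2952, 2373 and 2852. Bright nuclear transcripts were not examined as a class. The part of the 25S control and of the low brightest value of the cls8 array at 20 °C in these values was not tested. When each array was centred on the median of the 65 other plastid transcripts, the log2 difference of cls8 minus the wild type was -0.61 for rpoB, -0.20 for rpoA, -0.14 for rpoC2 and 0.18 for rpoC1. None of the 4 passed limma after this centring, at adjusted p between 0.344 and 0.838, and the unadjusted p of rpoA was then 0.302, against 0.0333 before. Leaving out 1 array also moved rpoA and rpoC2, which had log2 differences of -0.16 each without cls8 at 20 °C, and of -0.60 for rpoA and -0.48 for rpoC2 without cls8 at 4 °C. Without the wild type at 20 °C rpoC2 was at -0.10, and without the wild type at 4 °C at -0.54.

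The neighbours of the subunit genes were set beside them, because genes of 1 run can be read into a common precursor. Behind rpoB, rpoC1 and rpoC2 lie rps2, of the small ribosomal subunit, and atpI, atpH, atpF and atpA, of the ATP synthase. None of these 5 passed for cls8, and all 5 had negative log2 differences, between -0.50 for atpI and -0.12 for rps2, with a median of -0.30. At the head of the run the differences in cls8 were -0.79 for rpoB, 0.01 for rpoC1 and -0.32 for rpoC2. The 95% intervals of the 3 adjacent genes overlapped, and differences between genes were not tested. Beside rpoA, 6 of the 10 listed ribosomal protein genes had a named probe set (rpl36, rpl14, rpl16, rps3, rpl22 and rps19). All 6 were lower in cls8 than in the wild type without overlap, with log2 differences between -0.43 for rpl36 and -0.22 for rpl16 and none passing, and rpoA, at -0.38, lay within that range. On its other side, petD of the cytochrome b6f complex had a difference of -0.81, which did not pass either (limma adjusted p = 0.336).

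**Figure D3:**
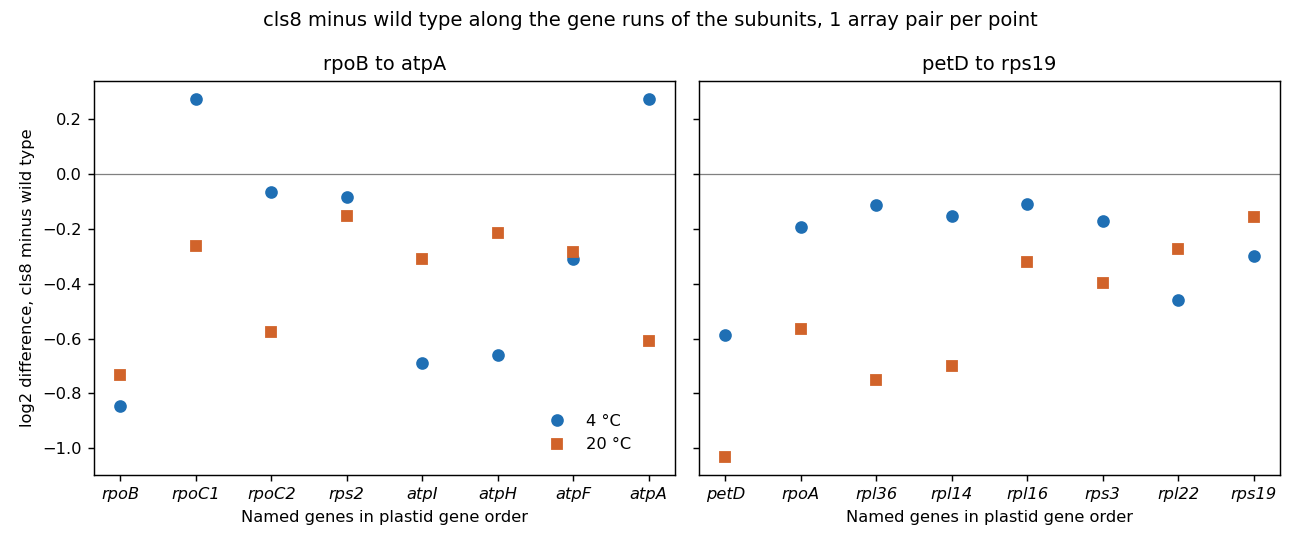
log2 difference of cls8 minus the wild type at 4 °C (blue circles) and 20 °C (orange squares), from 1 pair of arrays per point, for named genes in plastid gene order along the runs that hold rpoB, rpoC1 and rpoC2 (left) and rpoA (right). The right panel also shows petD, which lies on the other side of rpoA and is not counted in its run. rpoB is low at both temperatures (-0.84 and -0.73), and its neighbour rpoC1 lies on both sides of 0 (0.27 and -0.26).

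For temperature, atpH of the rpoB run rose (limma adjusted p = 0.0391), and the other 4 neighbours did not pass, at -0.01 to 0.14. None of the 6 neighbours of rpoA passed for temperature. In sfr6 none of these 11 neighbours passed, with log2 differences between -0.22 for atpI and 0.16 for atpH.

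Plastid genes were also listed by the enzyme that mainly reads them. The list read by the plastid-encoded polymerase held 27 genes of the photosystems, the cytochrome b6f complex and Rubisco, all with a named probe set. Of these, rbcL, for the large subunit of Rubisco, rose at 4 °C (limma adjusted p = 0.0437). Lower in cls8 were psbT, a small photosystem II protein (log2 difference -1.17), and petG, a small b6f protein (-1.06), and none passed for sfr6. Their median log2 difference was 0.05 for temperature, -0.08 for sfr6 and -0.29 for cls8. Of 4 other genes read chiefly or partly by the phage-type enzyme, with the subunit genes left out, accD and clpP had a named probe set and neither passed. accD, for a subunit of acetyl-CoA carboxylase, had log2 differences of 0.25 for temperature, -0.07 for sfr6 and -0.42 for cls8. clpP, for a protease subunit, had 0.13 for temperature, 0.07 for sfr6 and -0.25 for cls8.

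Within a line, 1 pair of arrays gave the difference between the temperatures. The log2 difference of rpoB, 4 °C minus 20 °C, was 1.00 in sfr6, 0.13 in cls8 and 0.24 in the wild type. For rpoA it was -0.26 in sfr6, 0.26 in cls8 and -0.11 in the wild type. rpoC1 and rpoC2 were higher at 4 °C in both mutants and lower in the wild type, with 0.09 in sfr6, 0.30 in cls8 and -0.24 in the wild type for rpoC1, and 0.07 in sfr6, 0.20 in cls8 and -0.30 in the wild type for rpoC2. The 65 other plastid transcripts had medians of 0.07 in sfr6, 0.30 in cls8 and -0.13 in the wild type, so rpoC1 and rpoC2 had the signs of these medians in all 3 lines, rpoA in cls8 and the wild type, and rpoB in both mutants.

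**Figure D4:**
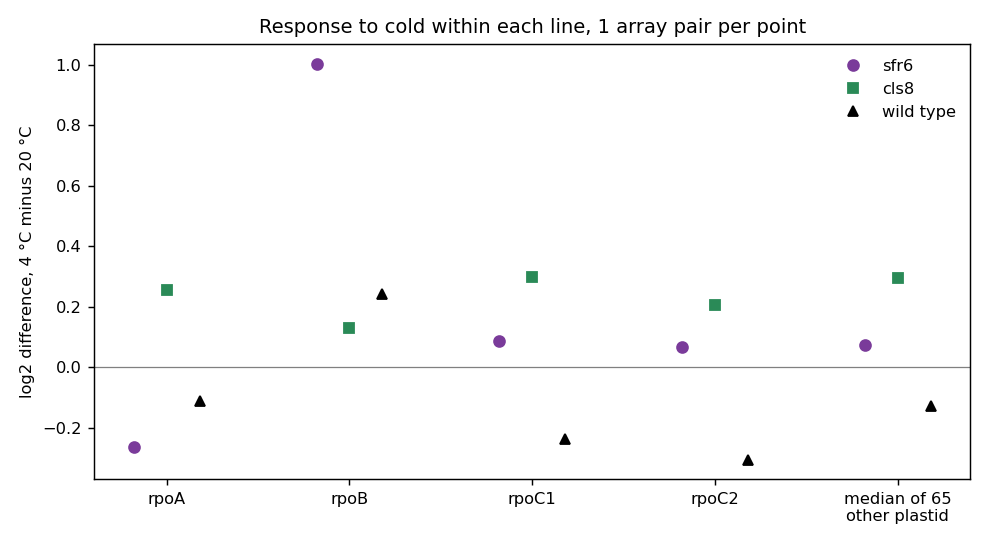
log2 difference of 4 °C minus 20 °C within sfr6 (circles), cls8 (squares) and the wild type (triangles), from 1 pair of arrays per point, for the 4 subunits and for the median of the 65 other plastid transcripts. The sfr6 value of rpoB (1.00) stands above every other point, which lie between -0.30 and 0.30.

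A further model term tested whether the cold difference in sfr6, or in cls8, departed from the mean of the other lines, with 1 residual degree of freedom beside the limma prior. For sfr6 this term was 0.82 ± 0.25 (SE) for rpoB, with a 95% interval that began at 0.23, an unadjusted p of 0.0123 and a limma adjusted p of 0.785. It was the highest of the 69 plastid transcripts, at a dim probe set with 1 pair of sfr6 arrays. After centring on the other plastid transcripts this rpoB term was 0.71, with an unadjusted limma p of 0.16. The sfr6 term was -0.33 for rpoA, 0.06 for rpoC1 and 0.12 for rpoC2, at adjusted p of 0.999 each. For cls8 the term was 0.44 ± 0.22 for rpoA, -0.49 ± 0.32 for rpoB, 0.37 ± 0.23 for rpoC1 and 0.32 ± 0.23 for rpoC2, with limma adjusted p between 0.74 and 0.864. The 65 other plastid transcripts had a median cls8 term of 0.35, and that of rpoB was the 2nd lowest of the 69. None of the 4 subunits passed in either test; 0% of all probe sets passed for sfr6, where 669 had an unadjusted p under 0.05, and 0.0147% passed for cls8.

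Likeness of pattern was measured as the root mean square difference between log2 values centred on their mean over the 6 arrays, which is 0 for identical patterns. The plastid transcripts most like rpoA were psbD (0.06), psbE (0.08) and rpl16 (0.10), against a spread of rpoA itself of 0.20. Those most like rpoC1, with a spread of 0.14, were matK (0.05), ndhI (0.06) and atpE (0.08). With a spread of 0.21 for rpoC2, those most like rpoC2 were ycf4 (0.07), psaI (0.07) and psbZ (0.08). For rpoB the nearest were psbB (0.21), psbN (0.23) and rps14 (0.26), against a spread of its own of 0.44. Among the 68 other plastid transcripts, rpoC1 ranked 19th in likeness to rpoC2, at 0.14, and rpoB ranked 66th in likeness to both rpoA and rpoC2. These ranks depend on the direction: in likeness to rpoB, with its wide spread, rpoC2 ranked 22nd, rpoA 47th and rpoC1 56th.

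Among 7252 nuclear genes, the nearest to rpoA were SLY2 (0.07), AT5G05190 (0.08) and CYP71B37 (0.08), and the nearest to rpoB were AT2G24600 (0.15), AT2G26680 (0.17) and AT3G43510 (0.20). The nearest to rpoC1 were AT3G48140 (0.02), AT2G04800 (0.04) and AT5G51280 (0.04), and to rpoC2 cwINV6 (0.05), AT5G24170 (0.06) and AT5G35830 (0.06). These names describe patterns over 6 arrays, and no test was made of them.

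Few nuclear partners of the enzyme had a named probe set. Of 6 sigma factors and 13 proteins that associate with the core, 0 had one, so they were not analysed here. Of 3 phage-type polymerases only RPOTmp, which serves mitochondria and plastids, had one, at 4.8 to 10.5 over the 6 arrays and below the filter. Of 5 factors that edit plastid RNA, among them editors of subunit transcripts, YS1 read 10.6 to 21.5 and was below the filter. CRR22, an editing factor with rpoB among its targets, was kept, and read 30.8 in sfr6 at 4 °C, 28.1 in sfr6 at 20 °C, 18.8 in cls8 at 4 °C, 36.6 in cls8 at 20 °C, 38.6 in the wild type at 4 °C and 39.8 in the wild type at 20 °C. Its log2 differences were -0.19 for temperature, -0.29 for sfr6 and -0.38 for cls8, and none passed limma (adjusted p = 0.449, 0.656 and 0.826).

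The labelled tissue, whole seedlings, was checked with markers of leaf, root, guard cells and dividing cells. All 4 leaf markers with a named probe set were bright, with RCA, LHCB4.1, LHCB4.2 and PSBW between 2247 and 4433 over the arrays, and so was the root marker PYK10, at 2585 to 3418. The root hair marker EXPA7 read 49.4 to 65.8, the guard cell marker FMA 36.3 to 45.2 and the dividing cell marker AUR1 87.7 to 137.6. None of the 8 markers passed limma for temperature, sfr6 or cls8. The fitted log2 differences of the leaf markers, cls8 minus the wild type, lay between -0.14 and 0.10, but each averages opposite pairs of arrays. At 4 °C all 4 were higher in cls8, as with LHCB4.1, a light-harvesting protein, at 4351 in cls8 against 2931 in the wild type. At 20 °C all 4 were lower in cls8, with LHCB4.1 at 3418 in cls8 against 4433 in the wild type, and PSBW, a photosystem II protein, at 2247 in cls8 against 3496 in the wild type. The root marker PYK10 was also higher in cls8 at 4 °C, at 3418 against 2852 in the wild type. At 20 °C PYK10 was lower, at 2585 in cls8 against 3338 in the wild type. FMA had the same directions, and EXPA7 and AUR1 did not. The plastid transcripts were also lower in cls8 at 20 °C, and the part of green tissue in their values was not tested.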

How the data were processed

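Total RNA of 6 samples was measured on Affymetrix ATH1 arrays with biotin-labelled cRNA. The authors deposited 1 intensity per probe set, unlogged; leaving off 2% at either end, these average 100 on every array, as read from the values. Which algorithm and software made them is not given in the sources. Of 22810 probe sets, 64 controls were set aside. The platform's probe table gave 1 gene for 13513, and 13436 of these matched a RefSeq table (assembly TAIR10.1), used for names and gene order alone. The build of the probe table is not given, so no coordinates are printed.

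Intensities were transformed as log2(intensity + 14.1), the pseudocount being the 25th percentile of all values, which understates changes of dim probe sets such as rpoB. The 13648 probe sets at or above the 40th percentile of mean log2 value were fitted with limma 3.58.1 in R 4.3.3 (trended eBayes). Line and temperature entered additively, leaving 2 residual degrees of freedom and a prior of 6.82. A further term gave 1 line its own response to cold. Tests were two-sided, with Benjamini-Hochberg adjustment over all 13648 and a threshold of 0.05. The code was tested on simulated data. Samples of the same line or temperature stand in for replicates. The residual behind the p-values mixes unlike cold responses of the lines with noise of single arrays, and limma draws it toward its prior. Spread between replicates of a group was not measured, and the number of arrays limits the precision.

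The members, gene lists and tests were chosen with earlier results of these data known. The text names all 4 members, list members that passed with a few others, and the 3 plastid and 3 nuclear genes nearest in pattern to each member. petD, RCA, and the genes singled out as dim, highest or below rpoB were named after their values were seen. Alternatives were no pseudocount, the median as pseudocount, no filter, quantile normalization, centring on the other plastid transcripts, no intensity trend, no line or temperature term, and leaving out each array. For the cold response of 1 line they were chosen after seeing the data, and arrays were not left out.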

Additional observations from a re-analysis of the deposited data

How the results depend on the processing

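No subunit passed for sfr6, cls8 or the cold response of 1 line under any alternative run. For temperature 0 to 1 of 4 passed when an array was left out, the 1 being rpoB without either cls8 array. Of 204 recomputed values of single subunits, 188 kept their direction and their side of the threshold, 14 changed sign and 2 passed in place of not passing. No subunit whose value changed sign had passed, and the cause was not tested. With arrays left out, the log2 difference for temperature ranged from -0.19 to 0.073 for rpoA, 0.19 to 0.62 for rpoB, -0.074 to 0.19 for rpoC1 and -0.12 to 0.14 for rpoC2. For sfr6 it ranged from -0.45 to -0.11 for rpoA, -0.70 to 0.12 for rpoB, -0.037 to 0.39 for rpoC1 and -0.13 to 0.31 for rpoC2, and for cls8 from -0.60 to -0.16 for rpoA, -1.03 to -0.54 for rpoB, -0.21 to 0.22 for rpoC1 and -0.54 to -0.10 for rpoC2. Centred on the other plastid transcripts, rpoC2 was 0.00702 for temperature and the sfr6 cold term of rpoC1 was -0.047. After quantile normalization the cls8 difference of rpoC1 was -0.021. The number of all probe sets that passed ranged over the settings from 1445 to 2812 for temperature (2570 as reported), 0 to 431 for sfr6 (183), 1 to 51 for cls8 (16), 0 to 3 for the sfr6 cold term (0) and 0 to 22 for the cls8 cold term (2). The model itself pairs arrays, by line for temperature and by temperature for line, and with no line term the unadjusted p of rpoB for temperature was 0.129, against 0.0257. No paired analysis by replicate number was possible because every group has 1 array.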
